A study of Sus scrofa with 13 samples.

Results

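The genes described here encode the proteins of the cytosolic ribosome, together with a few close relatives and partners that carry a ribosomal protein symbol. They were chosen by name: every probe set whose platform gene symbol is RPL or RPS followed by a digit, or RPLP0, RPLP1, RPLP2 or RPSA, with the S6 kinases (RPS6K symbols) left out. This gave 96 of 23999 probe sets and 64 of 6765 named genes, 38 of the large subunit, 25 of the small subunit and 1, RPS19BP1, that is no ribosomal protein. For each gene the probe set with the highest mean over all arrays stood for it.

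Heart tissue came from drill biopsies of 13 female pigs of the Sinclair miniswine breed, and the RNA of each animal was put on 1 Affymetrix porcine array. At 3 months of age and a weight of about 10 kg, every animal had a permanent ligature placed on the first and the second diagonal branch of its left anterior descending artery, so all hearts were infarcted and no uninfarcted hearts were analysed here. The stem cell group, 7 animals, received 50000000 of the cells that the labels call MPCs, 10000000 at each of 5 places in the border zone, in 2 ml saline. The saline group, 6 animals, received 2 ml saline in 5 injections into similar places. Biopsies were taken at month 4. Where a biopsy lay relative to the infarct, where the cells came from, and any batch of animals or arrays are not given, which leaves no batch to compare within.

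The cytosolic ribosome translates nuclear-encoded messages. In it a large subunit joins amino acids into protein and a small subunit reads the message, each built from ribosomal RNA and many small proteins. Messages of ribosomal proteins carry a pyrimidine-rich start through which the kinase complex mTORC1 controls their translation as a group. In heart muscle, ribosome production is known to go up during growth of the muscle cells under load.

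As a check of the tissue label, all 13 of the cardiomyocyte markers found on the array lay above the intensity filter, with a summed intensity of 242400 to 281120 in stem cell animals and 233310 to 260150 in saline animals. Of 16 fibroblast and matrix markers found, 15 passed the filter, with sums of 26546.7 to 74269.7 in stem cell animals and 26381.9 to 80166.7 in saline animals. Of 12 lymphocyte markers found, 3 passed, and CD3D, IL7R and PRF1 lay at or below control probe sets with no porcine target. Endothelial markers passed for 10 of 12 found, smooth muscle and pericyte markers for 8 of 8, macrophage and monocyte markers for 12 of 13, fat cell markers for 2 of 6 and red cell markers for 3 of 4. In bulk tissue, fewer cells of a type and less RNA per cell cannot be told apart.

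The study asked how gene expression in the infarcted heart differs after stem cell injection. Of the 64 genes, 61 had a lead probe set bright enough to test (a mean log2 intensity above 3.36), 36 of the large subunit, 24 of the small subunit and RPS19BP1. None of the 61 passed an adjusted p of 0.05 in limma, where 0% of all 14399 probe sets tested passed, and the smallest adjusted p among them was 0.414. Before adjustment, 7 members had p under 0.05 and were lower in stem cell animals (11.5% of them, against 5.15% of all probe sets tested) and 0 were higher (against 5.4%). The 7 were RPL31, RPL38 and RPLP2 of the large subunit, RPS15, RPS21 and RPS29 of the small subunit, and RPS19BP1. In no member did the values of the groups stay apart (0.16% of all probe sets had every stem cell animal below every saline animal, and 0.118% every one above).

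Most members had a small negative difference. The log2 difference, stem cells minus saline, was below 0 in 53 of 61 members (86.9%, against 47.2% of all probe sets tested), with a median of -0.15 against 0.017 over all probe sets. The median standard error of a member's difference was 0.11, and its 95% interval reached 0.23 to either side at the median, so differences of the typical size could not be told from 0 gene by gene. Genes of a complex are not independent, and the 53 are a count, not a test. The members were also bright: 54 of the 61 had a mean log2 intensity above 12, against 3.02% of all probe sets tested. The shares over all probe sets given throughout are thus mostly of dimmer ones. The part of brightness in the members' differences and low values was not tested. Some cell type markers had larger negative medians: -0.30 for macrophage and monocyte markers (10 of 12 negative, 3 lower at an unadjusted p under 0.05) and -0.32 for smooth muscle and pericyte markers (6 of 8 negative, 2 lower). Endothelial markers had -0.17, cardiomyocyte markers 0.073 and fibroblast and matrix markers 0.099. The part of these cell types in the members' differences was not tested beyond the tissue makeup covariate, which contrasts muscle with matrix genes.

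The number of members lower at an unadjusted p under 0.05 depended on single animals, and the share over all probe sets varied too. Leaving out stem cells replicate 3 gave 1, and leaving out replicate 6 or replicate 2 of that group gave 2 each, but 15, 11, 11 and 13 were counted without stem cells replicates 1, 4, 5 and 7. Leaving out saline replicates 2, 3, 4, 5 and 6 gave 2, 1, 2, 4 and 2, and leaving out saline replicate 1 gave 7. Over all probe sets that share was 4.15% without stem cells replicate 3, 3.72% without replicate 6 and 4.08% without replicate 2 of that group. It was 6.22%, 5.01%, 5.68% and 6.08% without stem cells replicates 1, 4, 5 and 7, and between 4.00% and 5.70% leaving out a saline animal. The members' median difference moved between -0.19 and -0.077, with the value nearest 0 when stem cells replicate 3 was left out and -0.10 when replicate 6 of that group was. Without stem cells replicates 3 and 6 together, a choice made after seeing the data, 0 members were lower or higher at an unadjusted p under 0.05 (against 2.68% lower and 2.26% higher over all probe sets), 38 of 61 were negative (against 50%), and the median was -0.014 against 0.0003 over all probe sets.

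**Figure D1:**
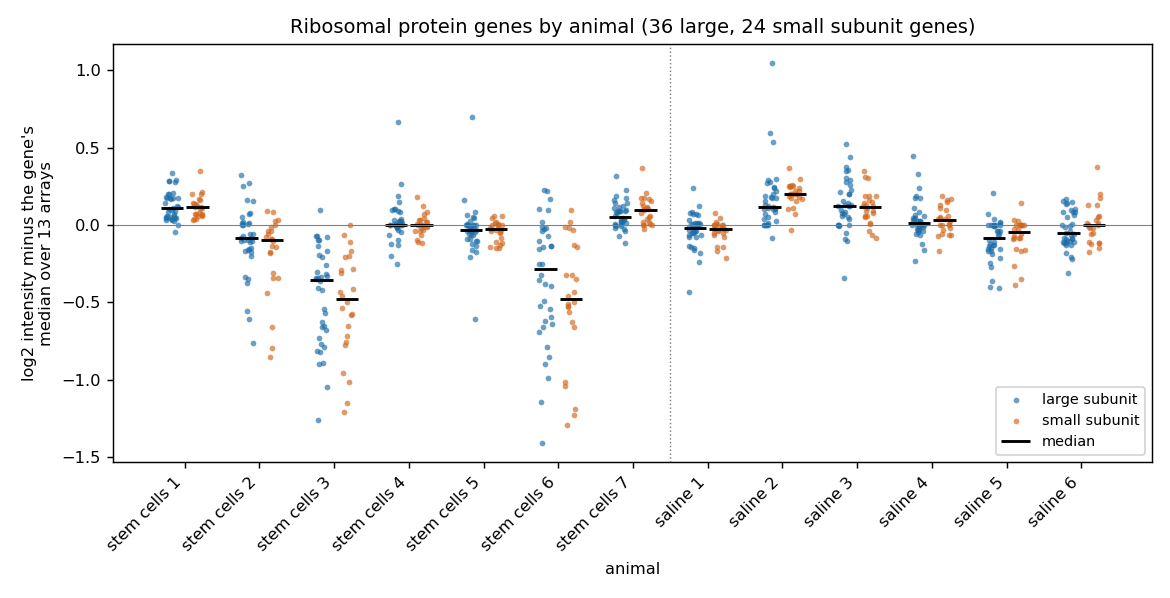
Each point is 1 ribosomal protein gene in 1 animal, as the log2 intensity minus that gene's median over the 13 animals; stem cell animals are on the left and saline animals on the right. Lines are the medians of each subunit, and RPS19BP1 is not drawn. The large and small subunit medians are -0.35 and -0.48 in stem cells replicate 3, and -0.29 and -0.48 in replicate 6. Over all 61 members, RPS19BP1 included, these 2 animals have medians of -0.42 and -0.38, and the 6 saline animals have medians between -0.060 and 0.18.

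By animal, the genes varied together. Set against each gene's own median over the 13 animals, the members had a median deviation of -0.42 in stem cells replicate 3 and -0.38 in stem cells replicate 6. The other stem cell animals had 0.11 (replicate 1), -0.093 (replicate 2), 0 (replicate 4), -0.031 (replicate 5) and 0.080 (replicate 7). The saline animals had -0.025 (replicate 1), 0.18 (replicate 2), 0.12 (replicate 3), 0.011 (replicate 4), -0.060 (replicate 5) and -0.012 (replicate 6). Stem cells replicates 3 and 6 therefore lay below all other animals, and the remaining animals of both groups overlapped.

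The 13 animals were also ranked gene by gene, with the share over all probe sets tested in parentheses. Stem cells replicate 3 had the lowest value in 30 of 61 members (4.54% of all probe sets) and was among the 2 lowest in 51 (11.4%). Stem cells replicate 6 was lowest in 17 (10.7%) and among the 2 lowest in 41 (19.9%). Saline replicate 6 was lowest in 7 members (14.2%), saline replicate 5 in 4 (11%), stem cells replicate 2 in 2 (11.2%) and stem cells replicate 5 in 1 (6.84%). The other 7 animals were lowest in no member. Over all probe sets stem cells replicates 1, 4 and 7 were lowest in 5.17%, 8.72% and 4.56%, and saline replicates 1 to 4 in 4.06%, 9.29%, 4.67% and 5.07%. At the other end, saline replicate 2 had the highest value in 32 members (14.4%) and saline replicate 3 in 11 (7.5%). A deviation below -0.5 was found in 27 members in stem cells replicate 3 (5.73% of all probe sets), in 25 in replicate 6 (12.8%), in 7 in replicate 2 (11.6%) and in 1 each in replicates 4 (10.7%) and 5 (6.66%). No member was that low in stem cells replicates 1 (5.39%) and 7 (5.27%), nor in saline replicates 1 to 6 (5.37%, 7.59%, 4.76%, 4.68%, 11.5% and 14.5%).

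The SD over animals was larger in the stem cell group in 53 of 61 members (against 52.8% of all probe sets tested), and more than 2 times larger in 26 (against 11.4%). The median SD was 0.25 in the stem cell group (n = 7) and 0.13 in the saline group (n = 6). Without stem cells replicates 3 and 6 the SD was larger in the stem cell group in 29 of 61. These animals were picked for their low values in the members, so a smaller count follows in part from that choice. The share over all probe sets was not calculated for this removal.

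Other measures of these 2 animals are given beside their low values. Their summed cardiomyocyte markers were 281120 (replicate 3) and 279200 (replicate 6), both above the saline range of 233310 to 260150. Those of fibroblast and matrix were 43117.8 and 29308.5, against 26381.9 to 80166.7 in saline animals. The macrophage and monocyte sum was 4849.87 in replicate 3 and 3684.11 in replicate 6, the lowest among stem cell animals, against 3885.83 to 7590.25 in saline animals. The control probe sets give a 3' over 5' log2 ratio, which grows as RNA is degraded or copied incompletely. It was 0.74 in replicate 3 and 0.73 in replicate 6 for elongation factor 1A, against 0.80 to 1.07 in saline animals, and 1.33 and 1.38 for GAPDH, against 1.50 to 1.75. For actin it was 2.17 and 2.93, against 2.21 to 4.20 in saline animals. Ratios as low were found in other stem cell animals, with 0.71 for elongation factor 1A in replicate 5 and 1.36 for GAPDH in replicate 7, whose members had median deviations of -0.031 and 0.080. Stem cells replicate 2 was also under the saline range in several members described below. It had the highest ratios of all animals for GAPDH (1.87) and actin (5.03), and 1.01 for elongation factor 1A. The part of tissue makeup and of RNA quality in the low values of stem cells replicates 2, 3 and 6 was not tested. In the group comparison, 2 members were lower at an unadjusted p under 0.05 with tissue makeup as a covariate (against 5.71% of all probe sets). With the 3' to 5' ratio, 4 were lower (6.94%) and 3 higher (1018 of 14399 probe sets) at that p. Without a covariate, 7 were lower (5.15%) and 0 higher. Negative members numbered 53 with tissue makeup (47.0% of all probe sets) and 51 with the ratio (46.0%).

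The lateral stalk of the large subunit, which recruits the elongation factors to the ribosome, held the gene with the largest difference among true ribosomal proteins. RPLP2, an acidic stalk protein, had log2 intensities of 11.10 to 12.57 in stem cell animals with a median of 12.31, against 12.28 to 12.95 in saline animals with a median of 12.58. Its low values were 11.10 in stem cells replicate 6, 11.47 in replicate 3 and 11.96 in replicate 2, all under the lowest saline animal, while the other 4 stem cell animals lay within the saline range. The difference was -0.54 ± 0.22 (SE), a 0.686-fold level, with a 95% interval of -1.01 to -0.077 and an adjusted p of 0.429 in limma, and it was -0.24 without stem cells replicates 3 and 6.

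RPLP1, the partner of RPLP2 in the stalk, spanned 12.48 to 13.25 in stem cell animals with a median of 13.05, against 13.03 to 13.29 in saline animals with a median of 13.20. Again replicates 6, 3 and 2, at 12.48, 12.51 and 13.01, were the stem cell animals under the saline range. Its difference was -0.25 ± 0.13 (SE; adjusted p = 0.511 in limma). RPLP0, the protein on which the stalk is built, behaved otherwise: it spanned 14.67 to 14.80 in stem cell animals with a median of 14.72, against 14.57 to 14.81 in saline animals with a median of 14.67. Stem cells replicates 3 and 6, both at 14.80, were the highest of their group, and the difference was 0.050 ± 0.057 (SE; adjusted p = 0.769 in limma). A dim second probe set of RPLP0 gave -0.33.

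**Figure D2:**
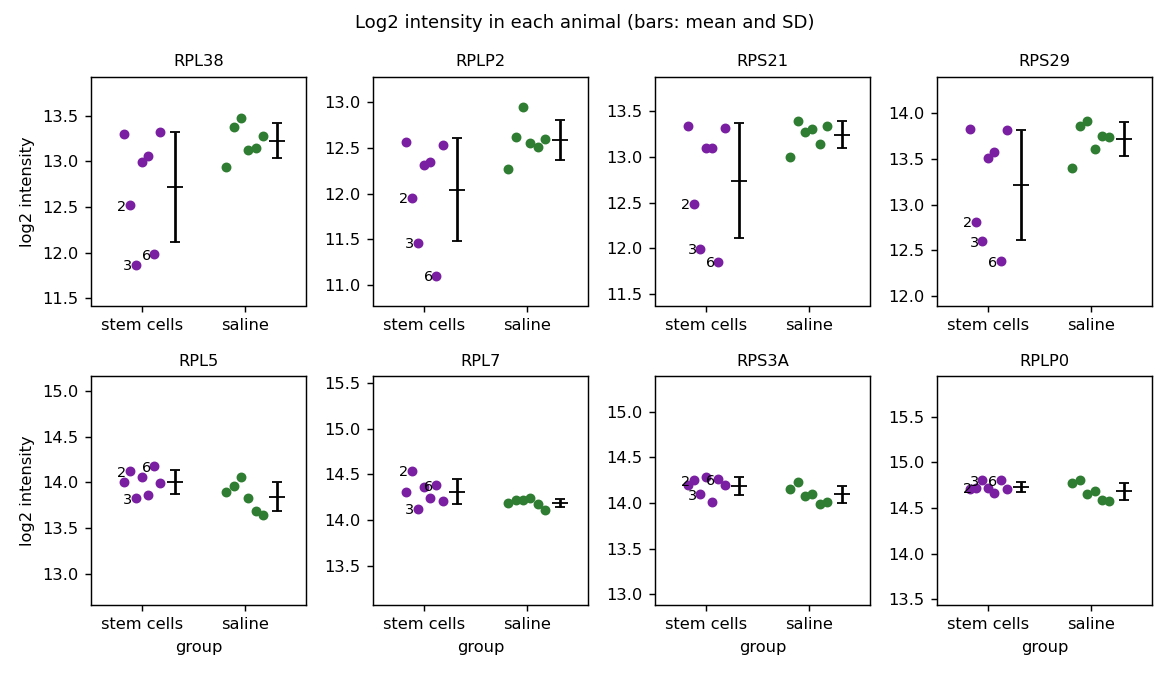
Log2 intensity of selected ribosomal protein genes in every animal, stem cell animals left of saline animals, with the group mean and SD as bars and stem cells replicates 2, 3 and 6 marked by number. In RPLP2, RPL38, RPS21 and RPS29 the 3 marked animals lie under all saline animals, and in RPLP0 replicates 3 and 6 are the highest stem cell animals.

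RPL5 and RPL11 bind the smallest ribosomal RNA of the large subunit, and outside the ribosome the pair is known to bind the p53 regulator MDM2. RPL5 had the largest positive difference among all members. It spanned 13.82 to 14.18 in stem cell animals with a median of 14.00, against 13.64 to 14.05 in saline animals with a median of 13.86. The groups overlapped, and the highest stem cell animal was replicate 6. The difference was 0.16 ± 0.084 (SE; 95% interval -0.019 to 0.34; adjusted p = 0.518 in limma). RPL11 averaged 12.92 ± 0.21 (SD, n = 7) in stem cell animals and 12.94 ± 0.094 (SD, n = 6) in saline animals, with a difference of -0.021 ± 0.10 (SE).

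RPL17, RPL19, RPL31 and RPL35 lie around the exit of the tunnel through which the new protein leaves. All 4 differences were negative, with a median of -0.20. RPL31 spanned 14.17 to 15.31 in stem cell animals with a median of 14.93, against 14.97 to 15.40 in saline animals with a median of 15.15. Its lowest values were in stem cells replicates 6 and 3, at 14.17 and 14.37, and 4 stem cell animals lay under all saline animals. The difference was -0.34 ± 0.15 (SE; adjusted p = 0.459 in limma), a second probe set gave -0.37, and without stem cells replicates 3 and 6 it was -0.12. RPL35 spanned 12.91 to 14.10 in stem cell animals with a median of 13.90, against 13.83 to 14.21 in saline animals with a median of 14.04, a difference of -0.40 ± 0.19 (SE; adjusted p = 0.48 in limma). RPL17 and RPL19 had differences of -0.024 and -0.072.

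RPL38, a small surface protein that in the mouse is needed to translate a subset of Hox messages, spanned 11.87 to 13.32 in stem cell animals with a median of 13.00, against 12.94 to 13.48 in saline animals with a median of 13.21. Replicates 3, 6 and 2, at 11.87, 11.98 and 12.52, were the stem cell animals below the saline range. The difference was -0.50 ± 0.23 (SE; 95% interval -0.99 to -0.018; adjusted p = 0.458 in limma), and -0.19 without stem cells replicates 3 and 6. A dimmer second probe set (mean log2 9.11) gave -0.52.

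Other large subunit proteins lay closer to 0. RPL23, which also can bind MDM2, spanned 13.99 to 14.45 in stem cell animals with a median of 14.37, against 14.38 to 14.57 in saline animals with a median of 14.45. Of its stem cell values, 4 were below all saline values, and the difference was -0.17 ± 0.086 (SE; adjusted p = 0.505 in limma). RPL3, which reaches towards the site of peptide bond formation, averaged 11.68 ± 0.31 (SD, n = 7) in stem cell animals and 11.79 ± 0.50 (SD, n = 6) in saline animals. RPL13A, known for a role outside the ribosome in silencing inflammatory messages, differed by -0.055 ± 0.068 (SE). RPL22, an RNA-binding protein, spanned 13.14 to 14.04 in stem cell animals with a median of 13.75, against 13.73 to 13.97 in saline animals with a median of 13.89, and its difference of -0.21 was -0.018 without stem cells replicates 3 and 6.

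Differences above 0 were found in 6 large subunit genes. After RPL5, RPL7 had the next, spanning 14.12 to 14.54 in stem cell animals with a median of 14.30, against 14.10 to 14.24 in saline animals with a median of 14.20. Its stem cell range held the highest value of all, 14.54 in replicate 2, and the difference was 0.12 ± 0.070 (SE; adjusted p = 0.56 in limma). A dim second probe set of RPL7 (mean log2 4.03) gave -0.12. The other genes above 0 were RPL4 (0.094), RPL9 (0.069), RPL6 (0.054) and RPLP0. The 23 large subunit genes outside the stalk, the tunnel exit, the RNA-binding pair and the paralogues had a median of -0.097, with 19 negative.

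Those not yet named all had differences below 0. RPL27 (-0.28), RPL13 (-0.26) and RPL21 (-0.22) lay furthest from 0, and in each of these stem cells replicate 3 was the lowest animal. RPL34 (-0.19), RPL12 at the base of the stalk (-0.15), RPL27A (-0.15) and RPL29 (-0.12) followed. Nearest to 0 were RPL15 (-0.097), RPL32 (-0.075), RPL10A of the mobile stalk beside the transfer RNA exit site (-0.067), RPL24 (-0.058), RPL8 close to the catalytic centre (-0.042) and RPL14 (-0.036). In RPL34, RPL32, RPL24 and RPL14 the difference was above 0 without stem cells replicates 3 and 6, at 0.024, 0.022, 0.027 and 0.030.

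In the small subunit, 22 of 24 genes had negative differences, with a median of -0.18. RPS21 spanned 11.85 to 13.34 in stem cell animals with a median of 13.10, against 13.00 to 13.40 in saline animals with a median of 13.29. Replicates 6, 3 and 2, at 11.85, 11.99 and 12.48, were below every saline animal. The difference was -0.50 ± 0.23 (SE; adjusted p = 0.465 in limma), and -0.17 without stem cells replicates 3 and 6.

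RPS29, a zinc-binding protein that is among the genes mutated in Diamond-Blackfan anaemia, an inherited failure of red cell production in humans, spanned 12.38 to 13.82 in stem cell animals with a median of 13.51. In saline animals it spanned 13.40 to 13.91 with a median of 13.75. Replicates 6, 3 and 2, at 12.38, 12.60 and 12.81, were again the stem cell animals below the saline range. The difference was -0.50 ± 0.23 (SE; adjusted p = 0.459 in limma), and -0.20 without stem cells replicates 3 and 6.

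RPS15, which is needed for the export of small subunit precursors from the nucleus, spanned 12.54 to 13.30 in stem cell animals with a median of 13.13, against 13.08 to 13.46 in saline animals with a median of 13.30. Replicates 6, 3 and 2 were below the saline range, at 12.54, 12.59 and 12.72, and the difference was -0.31 ± 0.14 (SE; adjusted p = 0.458 in limma). By an exact two-sided permutation test over the animals, RPLP2 (p = 0.0484) and RPS19BP1 (p = 0.0239) stayed under 0.05 before adjustment. RPL31 (0.0804), RPS15 (0.0828), RPL38 (0.0857), RPS29 (0.101) and RPS21 (0.110) did not.

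RPS27, RPS28 and RPS18 just missed the unadjusted threshold. RPS27, another zinc-finger protein, spanned 12.10 to 13.41 in stem cell animals with a median of 13.20, against 13.22 to 13.49 in saline animals with a median of 13.33, a difference of -0.41 ± 0.19 (SE). A dimmer second probe set of RPS27 (mean log2 7.74) gave 0.40. RPS28 spanned 12.73 to 14.05 in stem cell animals with a median of 13.82, against 13.77 to 14.14 in saline animals with a median of 13.95, a difference of -0.43 ± 0.22 (SE). RPS18, in the head of the small subunit, differed by -0.27 ± 0.13 (SE), with its other probe sets at -0.20 and -0.33. In each of the 3, stem cells replicates 3 and 6 were the 2 lowest animals.

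RPS19, the gene most often mutated in Diamond-Blackfan anaemia, averaged 13.94 ± 0.25 (SD, n = 7) in stem cell animals and 14.13 ± 0.092 (SD, n = 6) in saline animals. RPS6, the ribosomal protein phosphorylated downstream of mTORC1, averaged 13.09 ± 0.090 in stem cell animals and 13.13 ± 0.13 in saline animals. RPSA, also known as a laminin receptor, averaged 12.82 ± 0.082 in stem cell animals and 12.85 ± 0.19 in saline animals. RPS27A, made as a fusion with ubiquitin, differed by -0.041 ± 0.075 (SE), and a dim second probe set gave 0.43. The largest positive differences of the subunit were those of RPS3A, at 0.091 ± 0.066 (SE; adjusted p = 0.628 in limma), and RPS4X, at 0.0019 ± 0.069 (SE).

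The remaining 11 small subunit genes lay between -0.20 and -0.022. RPS13 (-0.20), RPS26 near the exit of the message channel (-0.20), RPS25, which many viral internal entry sites need (-0.19), RPS9 (-0.19), RPS10 (-0.18) and RPS12 (-0.18) were close to the median of the subunit. RPS23 of the decoding centre (-0.11), RPS20 (-0.099), RPS16 (-0.097), RPS24 (-0.048) and RPS2 (-0.022) were nearer to 0. RPS2 had the narrowest stem cell range of these, 13.74 to 13.84 with a median of 13.77, against 13.67 to 13.96 in saline animals with a median of 13.81. In RPS2, stem cells replicates 3 and 6, at 13.78 and 13.76, lay within the saline range.

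Paralogues and a partner complete the set, and all 6 had negative differences with a median of -0.30. RPL22L1, the paralogue of RPL22, averaged 11.51 ± 0.52 (SD, n = 7) in stem cell animals and 11.81 ± 0.39 (SD, n = 6) in saline animals. RPS27L, the paralogue of RPS27, averaged 11.05 ± 0.52 in stem cell animals and 11.38 ± 0.28 in saline animals. Differences were -0.30 for RPL26L1, a paralogue of RPL26, -0.20 for RPL36AL and -0.065 for RPL7L1, a relative of RPL7.

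RPS19BP1, a nucleolar protein that binds RPS19 and is also known as an activator of the deacetylase SIRT1, had the largest difference of all members. It spanned 5.00 to 6.43 in stem cell animals with a median of 5.44, against 6.00 to 6.89 in saline animals with a median of 6.26. Of the 7 stem cell animals, 5 were below every saline animal, with replicates 3 and 2 lowest at 5.00 and 5.02. The difference was -0.76 ± 0.26 (SE; 95% interval -1.31 to -0.21; adjusted p = 0.414 in limma), and it was -0.58 without stem cells replicates 3 and 6.

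**Figure D3:**
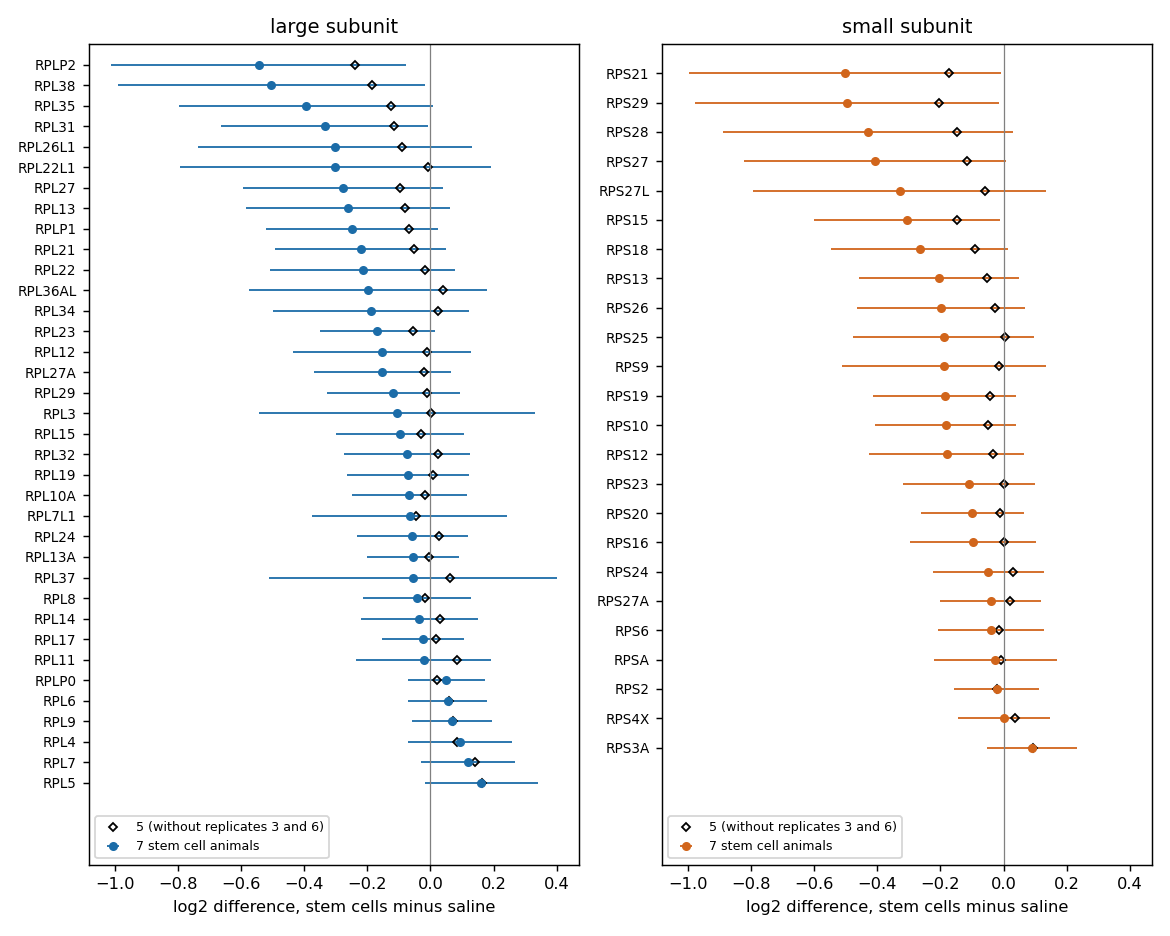
Log2 difference, stem cells minus saline, of the 36 large and 24 small subunit genes tested, with the 95% interval from limma (points and bars). The same difference without stem cells replicates 3 and 6 is also drawn, and RPS19BP1, of neither subunit, is not. The interval leaves out 0 in 3 large and 3 small subunit genes, all negative. The highest difference is that of RPL5 at 0.16.

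The subunits differed little. Large subunit genes had a median difference of -0.10, with 30 of 36 negative, and small subunit genes -0.18, with 22 of 24 negative. The large minus small difference of medians was 0.083. It was 0.049 to 0.107 leaving out each animal, and 0.015 without stem cells replicates 3 and 6. With the probe sets of a gene averaged, dim ones weighing as much as the lead, it was -0.015. Its direction thus depended on how probe sets were combined. In stem cells replicate 3 the median deviation was -0.35 for large and -0.48 for small subunit genes, and in stem cells replicate 6 it was -0.29 and -0.48.

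The number in a gene's name went with its difference, more so in the large subunit. Ribosomal proteins were numbered by their migration in gels, so that larger proteins broadly have lower numbers. Among 29 large subunit genes with a plain number, Spearman's rho between number and log2 difference was -0.67, and among 22 small subunit genes it was -0.58. Among large subunit genes, the 15 with the lower numbers had a median difference of -0.036, 5 of them positive, and the 14 with the higher numbers had -0.18, none positive. In the small subunit the medians of the lower and higher 11 genes were -0.18 and -0.19, with 2 and 0 positive. Without stem cells replicates 3 and 6, rho was -0.49 in the large and -0.31 in the small subunit. All these genes share the same 13 arrays, so the correlation is a description across genes.

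**Figure D4:**
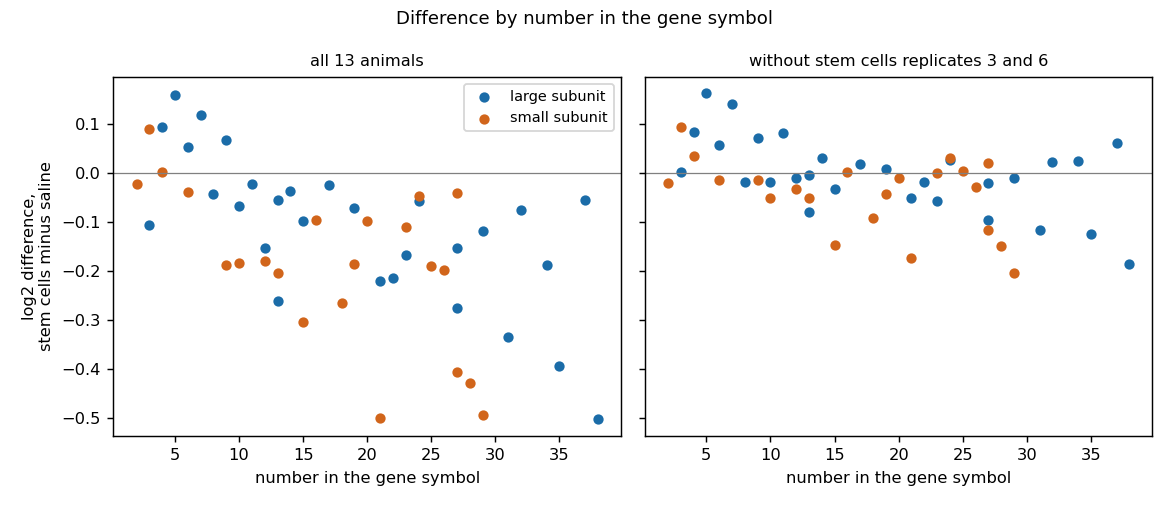
Log2 difference, stem cells minus saline, against the number in the gene symbol, for 29 large and 22 small subunit genes. Spearman's rho is -0.67 for the large and -0.58 for the small subunit.

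The same trend was present in single animals of both groups and in both directions. Deviations are taken from each gene's median over the same 13 animals, so trends in opposite directions are not independent of each other. For the large subunit, rho between the number and a gene's deviation was -0.80 in stem cells replicate 6, -0.71 in replicate 3 and -0.62 in replicate 2, and 0.50 in stem cells replicate 1. Among saline animals it lay between -0.41 in replicate 1 and 0.71 in replicate 6. In stem cells replicate 6, RPL4, RPL5, RPL6 and RPL7 had log2 intensities of 14.65, 14.18, 14.32 and 14.38, each above the highest saline animal (14.50, 14.05, 14.22 and 14.24). In the same animal RPL31, RPL35 and RPL38, at 14.17, 12.91 and 11.98, were each below the lowest saline animal (14.97, 13.83 and 12.94).

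Where a gene had several tested probe sets (23 genes), 18 of the 28 further probe sets had the sign of the lead, and in 13 genes all probe sets had 1 sign. Most of the further probe sets were much dimmer than the lead. Only 1 of RPL27, 1 of RPL31 and 2 of RPS18 had a mean within 2 log2 units of it, and these had its sign. The lead probe set was of the type designed to match a single transcript in 56 of 64 genes, and of types that can match several transcripts in 8. Near-identical copies and processed pseudogenes are common for these genes, so a share of signal from them cannot be told apart. A further 8 probe sets that carry a ribosomal protein symbol among several were not used. RPL26 (mean log2 3.32), RPL30 (2.86) and RPS15A (2.46) lay at or under the filter and were not tested. They give no level to compare. RPL37, the dimmest tested member, averaged 5.50 ± 0.49 (SD, n = 7) in stem cell animals and 5.56 ± 0.19 (SD, n = 6) in saline animals.

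The lists of genes around the ribosome had medians on both sides of 0. Of 34 tested initiation factors, 14 had negative differences with a median of 0.017. Of 38 ribosome assembly factors, 16 were negative with a median of 0.047. The RNA polymerase I list held subunits of that enzyme, which makes ribosomal RNA, and the factors TAF1B, TAF1D and TTF1. Of its 11 tested genes, 4 were negative with a median of 0.18. None of these, and none of the tested elongation factors (6), mTORC1 and translation control genes (12) or ribosome-bound factors (17), passed the adjusted threshold in limma. At an unadjusted p under 0.05, 1 initiation factor, 3 assembly factors, 1 polymerase subunit, 1 elongation factor and 2 mTORC1 genes were lower, and 2 initiation and 2 assembly factors were higher, against 5.15% lower and 5.4% higher over all probe sets. The elongation factors had a median of -0.12 with 4 of 6 negative, the mTORC1 genes -0.21 with 9 of 12 negative, and the ribosome-bound factors -0.033 with 12 of 17 negative.

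Within these lists single genes had larger differences than most ribosomal proteins, none past the threshold. EEF1A1, which brings charged transfer RNA to the ribosome, averaged 7.85 ± 0.46 (SD, n = 7) in stem cell animals and 8.59 ± 0.24 (SD, n = 6) in saline animals, a difference of -0.74 ± 0.21 (SE; adjusted p = 0.393 in limma). EIF3E, a subunit of initiation factor complex eIF3, averaged 12.53 ± 0.21 in stem cell animals and 12.17 ± 0.15 in saline animals, a difference of 0.36 ± 0.11 (SE). The H/ACA small nucleolar RNA proteins NHP2 and NOP10 differed by -0.60 and -0.70. POLR2L, a subunit that all nuclear RNA polymerases share, differed by -1.07 ± 0.28 (SE; adjusted p = 0.393 in limma), and LAMTOR5 and LAMTOR2, of the complex that anchors mTORC1 on lysosomes, by -0.65 and -0.59. EIF4A2, a helicase, differed by 0.30, POLR1B of RNA polymerase I by 0.24, and EEF1E1 and SEC61G by -0.28 each.

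FAU, in the ribosome-bound list, encodes a ribosomal protein of the small subunit fused to a ubiquitin-like protein and falls outside the naming rule. It spanned 11.86 to 12.90 in stem cell animals with a median of 12.59, against 12.65 to 13.01 in saline animals with a median of 12.74. Its 2 lowest animals were stem cells replicates 3 and 6, at 11.86 and 11.97, as in most members, and the difference was -0.34 ± 0.16 (SE; adjusted p = 0.485 in limma).

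**Figure D5:**
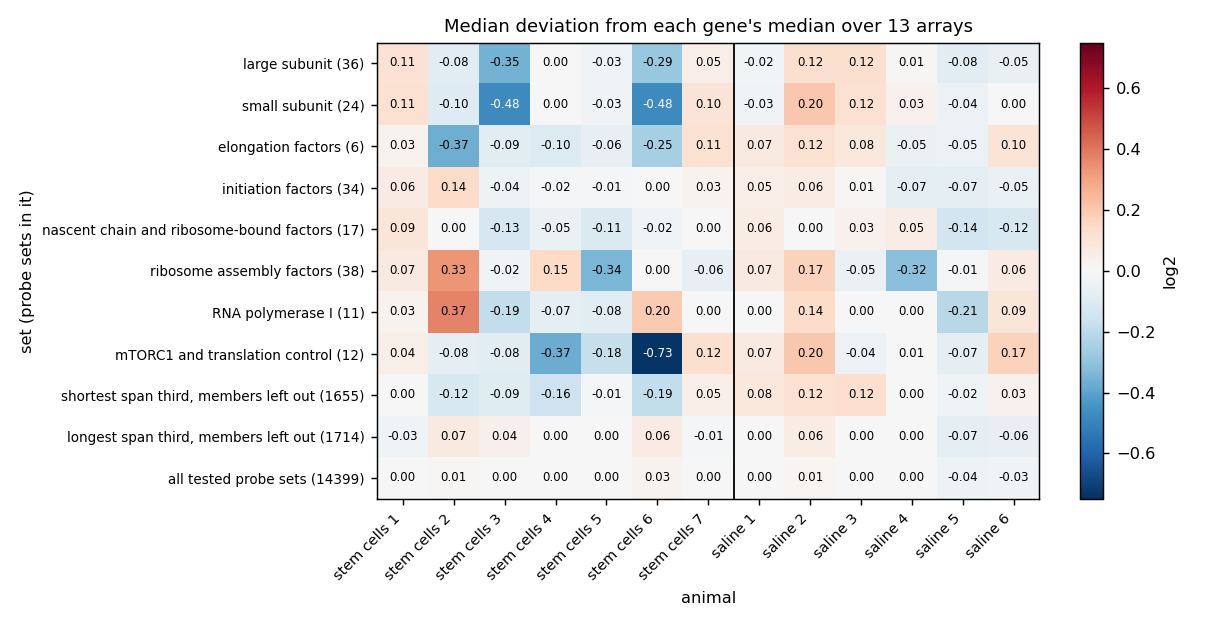
Median deviation (log2, printed and as colour) of each set's genes from their own medians over the 13 animals, one column per animal with stem cell animals left of saline animals, for both subunits, the lists around the ribosome, the shortest and longest genes by span, and all probe sets tested. Ribosomal proteins are lowest in stem cells replicates 3 and 6, and the mTORC1 and translation control list is lowest in stem cells replicate 6, at -0.73.

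Ribosomal protein genes are short. When 5142 genes were split by their span on the chromosome (introns included) into 3 classes of equal size, 60 of the 61 members fell in the shortest class, with a median of 4057 bases against 22508 over all. The other 1655 genes of that class had a median difference of -0.17 with 74.4% negative, beside -0.15 and 86.9% for the members. Without stem cells replicates 3 and 6 the medians were -0.12 for the other short genes and -0.014 for the members. By animal, the other short genes had a median deviation of -0.092 in stem cells replicate 3, -0.19 in replicate 6 and -0.16 in replicate 4, where the members had -0.42, -0.38 and 0. The part of gene length in the members' differences was not tested.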

How the data were processed

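Per the labels' protocols, biotin-labelled cRNA of total RNA was hybridised to 1 array for each of 13 biopsies. The deposited table gives 1 linear intensity per probe set and array, from GCRMA as run by the authors (background correction, normalization between arrays, summary of probes), per the submitters' processing notes. GCRMA's version and settings were not given in the sources used here. Normalization between arrays hides a change shared by most genes. The intensities were put on the log2 scale and 124 control probe sets were left out. Probe sets with a mean above the 40th percentile over all arrays (3.36) were tested, 14399 in all. The fit used limma 3.58.1 in R 4.3.3 (lmFit, eBayes with trend), with Benjamini-Hochberg adjustment over all of them. The fit was tested on simulated data. The p-values set the group difference against the spread between these animals and treat the animals as independent. The labels do not say how the animals were bred or housed, so that independence could not be checked.

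Genes came from the platform annotation, which can be old. All 64 gene IDs matched a RefSeq table of Sscrofa11.1, from which only names and spans were used. RPL3L and RPS14 were not analysed here. Members and lists were chosen with earlier results of these data known. Named genes were a list of 25 members of known role, the 6 of each subunit with the smallest p, the 2 of each with the largest positive difference, and the 2 genes of each pathway list with the smallest p. Others named for their role or place in the ordering were chosen after their values were seen. Replicate numbers 1 to 6 occur in both groups. The correlations of same-numbered animals lay between -0.266 and 0.237, and only replicate 2 correlated best with its own number. Low correlations cannot exclude a pairing of animals, and the main fit used none. Alternatives were other filters and normalizations, each animal left out, a replicate block, covariates for tissue makeup and for the 3' to 5' control ratio, array weights, other variance models, averaged probe sets and an exact permutation test.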

Additional observations from a re-analysis of the deposited data

Results flagged for a closer look

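In 2 of 66 groups checked, a single animal stood far from the others of its group, by Dixon's test on the groups of 6 and 7 animals for the named members, where chance alone gives such a case in about 1 of 20 groups. RPS27A had a log2 intensity of 14.16 in saline replicate 2, and the other saline animals lay between 13.94 and 13.99, a gap of 0.755 of the group's range. RPS4X had 13.79 in stem cells replicate 3, and the other stem cell animals lay between 13.97 and 14.09, a gap of 0.618 of the range. Both genes had differences near 0 between the groups.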

How the results depend on the processing

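The count of members past an adjusted p of 0.05 was 0 in every setting run, and also at an adjusted p of 0.10. The count lower at an unadjusted p under 0.05 was 7, and the share over all probe sets is given in parentheses. It was 2 with a variance without trend (5.26%), with array weights (4.61%) and with the tissue makeup covariate (5.71%). With the 3' to 5' ratio covariate it was 4 (6.94%), without stem cells replicates 3 and 6 it was 0 (2.68%), and leaving out each animal 1 to 15 (3.72% to 6.22%). With the replicate block, which leaves out stem cells replicate 7, it was 9 (4.90%), and 13 (6.08%) in the same 12 animals without it. The block changed no call after adjustment. The count of negative members lay between 49 and 54 leaving out each animal (45.2% to 49.3%). With a second quantile normalization it was 48 (48.6%), and 5 members were lower at an unadjusted p under 0.05 (5.37%). The members' median difference was then -0.095. The large minus small difference, 0.083, became -0.015 with probe sets averaged and 0.015 without stem cells replicates 3 and 6, and 0.049 to 0.107 leaving out each animal. The larger SD count, 53, was 29 without stem cells replicates 3 and 6, which were picked for their low values in the members.

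Of 840 values of 30 named genes under alternatives, 25 turned direction, and none of those with an adjusted p passed the threshold. The other filters, the other variance models and the permutation test keep a gene's difference by construction, so they could not turn it. The replicate block and the same 12 animals without it repeat the difference found without stem cells replicate 7. The 25 of 840 is therefore no measure of how stable the directions are. The 7 members with an unadjusted p under 0.05 lost it in 76 of 196 values under alternatives, RPL38 in 16 of 28, RPL31 and RPS21 in 15, RPS15 and RPS29 in 13, RPLP2 in 3 and RPS19BP1 in 1. A second quantile normalization turned RPSA (0.034), RPS6 (0.033) and RPL11 (0.030), and median centring RPS4X (-0.0091). Array weights turned RPL11 (0.0087) and RPS4X (-0.026), and the ratio covariate RPSA (0.0073) and RPL7L1 (0.015). Averaging probe sets, dim ones weighing as much as the lead, turned RPS27A (0.20), RPLP0 (-0.14) and RPL7 (-0.0018). Leaving out stem cells replicates 3 and 6 turned RPS27A (0.021), RPL3 (0.0014) and RPL11 (0.083). Leaving out 1 animal at a time, RPS4X ranged from -0.027 to 0.035, RPL11 from -0.063 to 0.027, RPL7L1 from -0.12 to 0.024, RPSA from -0.092 to 0.027 and RPL3 from -0.21 to 0.073. List medians likewise ranged from -0.039 to 0.087 for assembly, -0.069 to 0.0034 for ribosome-bound and -0.024 to 0.062 for initiation factors, which had -0.014 with the replicate block and in the same 12 animals without it. The cause of these turns was not tested. With 1 array per animal, the number of arrays limits precision.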
